A study of Mus musculus with 9 samples.

Results

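RIP-seq, the sequencing of RNA bound to an immunoprecipitated protein, shows which transcripts that protein occupies or travels with. The RNA that an antibody against phosphorylated UPF1 (p-UPF1) brought down from activated B cells was set against the RNA that normal rabbit IgG, an antibody with no chosen target, brought down from the same kind of lysate. The comparison held 6 of the 9 libraries of the series, 3 p-UPF1 and 3 IgG, each assigned by its label and carrying a letter from A to C. The other 3 were input libraries of whole lysate. All groups came from wild-type mouse spleen. B cells were purified by removing cells that carry CD43 and cultured for 72 h. The labels give CD40L at 5 ug/mL, an antibody to IgM at 10 ug/mL and IL-4 at 20 ng/mL, while the study's methods name an antibody to CD40. No genotype or treatment differed between the groups, and only the precipitating antibody did. All genes with enough counts were members, 13129 of the 27179 gene identifiers.

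UPF1 is an RNA helicase at the centre of nonsense-mediated mRNA decay (NMD), the pathway that removes mRNAs on which translation ends too early. When a ribosome stops far from the 3′ end or upstream of an exon junction, the kinase SMG1 phosphorylates UPF1, and the phosphorylated form recruits factors such as SMG5 and SMG6, which cut the mRNA or bring in enzymes that degrade it. Upstream reading frames, long 3′ UTRs and exon junctions behind the stop codon are the known features of normal mRNAs that enter this pathway. In B cells, NMD also clears immunoglobulin transcripts whose gene segments were joined out of frame. Stimulation through the B cell receptor, CD40 and the IL-4 receptor drives resting B cells into growth and division.

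The IgG libraries held 17372510 to 18550508 counts and the p-UPF1 libraries 23251890 to 24802119. Variation between replicates, as edgeR's common biological coefficient of variation, was 9.04% in IgG, 3.78% in p-UPF1 and 1.88% in input libraries. The 10 B cell markers, such as Cd79a, summed to 5766 to 5941 CPM with IgG and 3384 to 3479 CPM with the p-UPF1 antibody. T cell markers summed to 114 to 124 and 81.0 to 89.5 CPM, and monocyte and macrophage markers to 100.2 to 110.0 and 58.2 to 60.1 CPM, and no gene of either list was without a count. Neutrophil markers, 0 of 7 of which had enough counts, stayed at or below 0.217 CPM, with Ly6g and Ltf at no count. The summed level of the 6 plasma cell markers was 909 to 987 CPM with IgG and 1524 to 1564 CPM with the p-UPF1 antibody. Irf4 made up the rise over IgG, while Prdm1 and Xbp1 were lower with the p-UPF1 antibody, with values given below. In input the sum was 758 to 783 CPM. By the study's methods, input was a part of the B cell lysate and the rest was incubated with either antibody. The shifts of these marker sums were not tested for their part in any result.

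The p-UPF1 precipitate differed from the IgG precipitate across most of the transcriptome, and in both directions. Of the 13129 genes, 10845 (82.6%) differed at an adj. P below 0.05 in the quasi-likelihood test of edgeR, 5299 (40.4%) of them higher and 5546 (42.2%) lower. In the following an RNA is called gained when it was at least 1 log2 unit higher in p-UPF1 and lost when it was at least 1 log2 unit lower, each with an adj. P below 0.05. By this rule 2915 RNAs (22.2%) were gained and 2879 (21.9%) were lost, while 7335 (55.9%) were neither, with 922 gained by at least 2 units and 855 lost by at least 2. Libraries did not overlap for 5325 genes (40.6%) with p-UPF1 above IgG and for 5454 (41.5%) with p-UPF1 below. The gained RNAs took 13.6% ± 0.138 of the counts in IgG and 45.2% ± 0.363 in p-UPF1 libraries, and the lost RNAs took 34.2% ± 0.545 and 8.72% ± 0.0327 (SD, n = 3). In input these shares were 13.2% ± 0.0280 and 37.5% ± 0.133, close to the IgG shares. By point estimate 2905 of the gained RNAs were also above input and 2825 of the lost RNAs also below it, in a comparison that shares the p-UPF1 libraries.

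Counts are relative within a library, and the amount of RNA in each precipitate was not measured. Gained and lost therefore mean a shift against the median gene, which stood at -0.03 on the log2 scale with TMM scaling. Scaled so that mRNAs of the mitochondrial genome are equal in all libraries, the median gene moved by 4.69, 13039 genes were higher by at least 1 log2 unit and none lower by as much, and the lists of lost RNAs below, except those mRNAs themselves, turn to higher. Measured from the median gene under that scaling, 2929 were higher and 2867 lower. Library size alone and upper-quartile factors moved the median by -0.16 and -0.14.

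**Figure D1:**
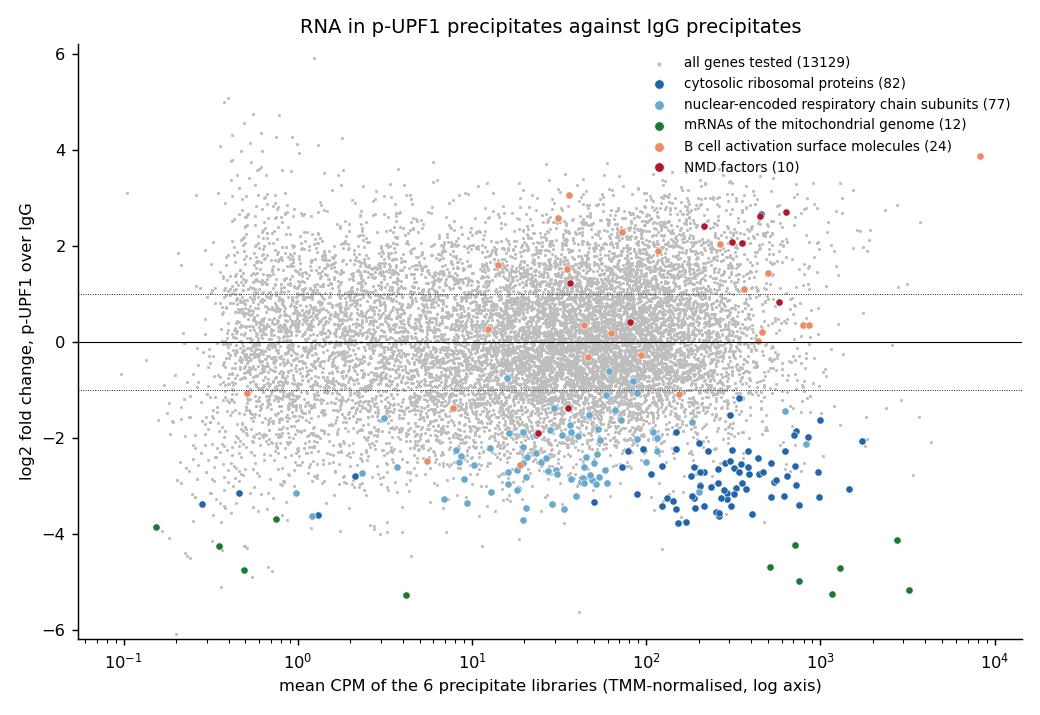
Each point is a gene, placed by its mean level in the 6 precipitate libraries (CPM, TMM-normalised, log axis) and its log2 fold change of p-UPF1 over IgG, with dotted lines at 1 and -1. Ribosomal protein, respiratory chain and mitochondrial mRNAs lie below the median gene, and most NMD factors lie above it, directions that are relative to the median gene, and the medians of the ribosomal protein and respiratory chain lists turn to higher when mitochondrial mRNAs are held equal.

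The RNAs at the upper end did not come from one pathway. Cd83, a surface protein of activated B cells, was the most gained RNA among those that averaged 10 CPM or more. It stood at 1037, 1048 and 1087 CPM in IgG libraries A, B and C and at 15344, 15766 and 14914 CPM in the p-UPF1 libraries. Every p-UPF1 library lay far above every IgG library, and the log2 fold change was 3.86 (SE 0.037, edgeR's quasi-likelihood test, adjusted p = 3.12e-19). Values in brackets after a gene below are log2 fold changes of p-UPF1 over IgG, whose median SE over all genes was 0.079, and every gene called gained or lost passed the adj. P threshold. Gins3, a subunit of the replicative helicase, was at 15.1, 17.1 and 18.7 CPM with IgG and 209.6, 214 and 213 CPM with the p-UPF1 antibody (3.64). Tab1, an adaptor that activates the kinase TAK1, went from 20.8, 23.3 and 22.8 to 252, 260.2 and 261 CPM (3.53). For both, libraries of the 2 antibodies did not overlap. Vhl, the ubiquitin ligase subunit that marks hypoxia-inducible factors for destruction, was at 39.2, 45.8 and 51.8 and 498, 513 and 516 CPM (3.48). Surf6 and Med22, a nucleolar protein and a Mediator subunit, are neighbouring genes of the Surfeit locus on chromosome 2 and reached 3.45 and 3.41. Cnr2, the cannabinoid receptor of immune cells, reached 3.56, and Pik3ip1, an inhibitor of PI3 kinase, reached 3.54. Armc7, Dnajc28, Itprip, Arf2, Tmem156 and Kctd7 lay between 3.45 and 3.71, and so did Pigh (3.49), whose exons overlap those of other genes. With IgG these 15 RNAs stood between -0.71 (Pigh) and 0.21 (Med22) log2 units from input, as with Gins3 at 15.7 ± 1.24 CPM and Vhl at 42.7 ± 2.11 CPM of input (SD, n = 3).

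**Figure D2:**
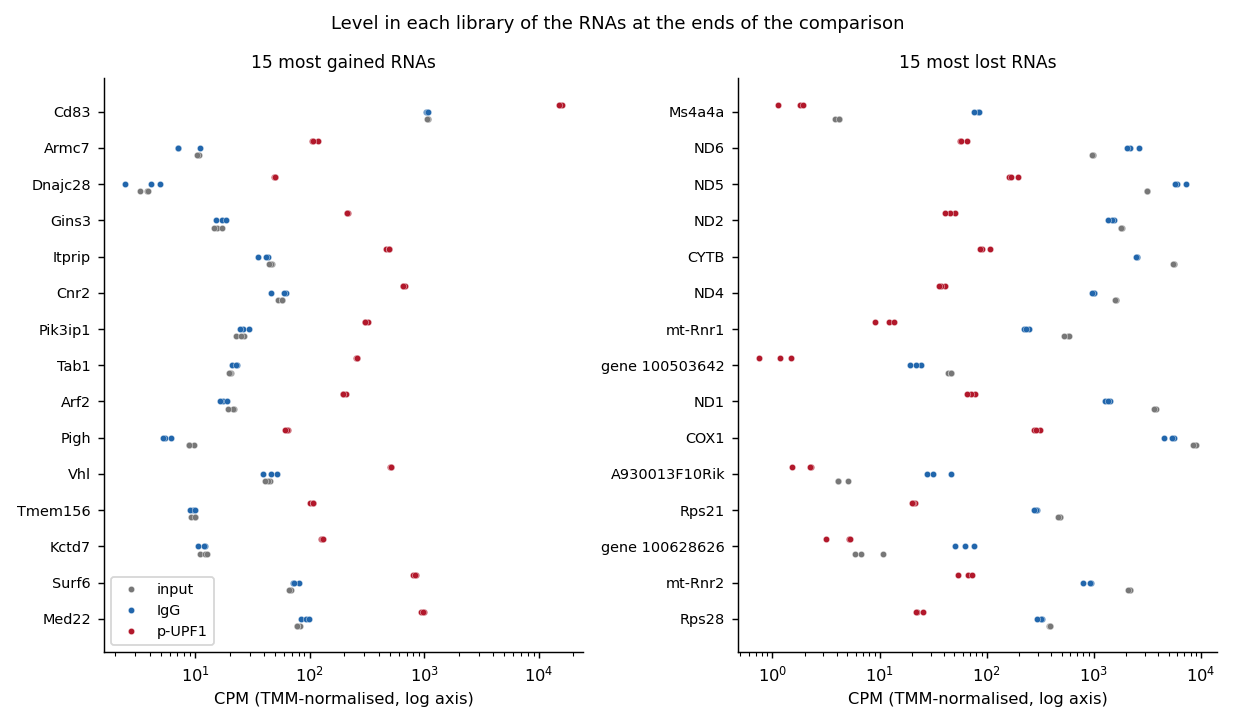
Points are single libraries on a log axis of TMM-normalised CPM, for the 15 RNAs with the highest (left) and the lowest (right) log2 fold change, averaging 10 CPM or more. Input and IgG coincide for most gained RNAs, such as Cd83 with 1057 ± 26.6 CPM in IgG and 1066 ± 12.4 CPM in input, while Ms4a4a, A930013F10Rik and gene 100628626 on the right are far higher in IgG than in input. ND6 and ND5 are also higher in IgG than in input, by 1.24 and 1.02 log2 units, while ND2, CYTB, ND4, ND1 and COX1 are lower. Lower on the right means relative to the median gene, and with mitochondrial mRNAs held equal, 64 of the 70 genes named by rule with a log2 fold change below 0 lie above 0 by point estimate.

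To show where the 3′ UTR begins in mRNAs of both sides, the last coding bases of 3 gained and 3 lost mRNAs are given 5′ to 3′ from GENCODE M21 on GRCm38, with the stop codon in capitals.
Smg5: ttctacaggcagtggaaggagattggtTGA
Gadd45b: gtcccctatatctctctagaggaacgcTGA
Ddit3: gaccgcatggtcagcctgcaccaagcaTGA
Rps21: gctgatggaattgtctcaaagaactttTGA
Magoh: ggattacacttcaagattaaaccaatcTAG
Atp5md: aagaaaactccagctgtgaaagcaacaTAA
Smg5 (stop codon at chr3:88361106-88361108, plus strand) has 1230 bases of 3′ UTR with 58.9% GC. Gadd45b (chr10:80931644-80931646, plus strand) has 558 bases with 57.0% GC. Rps21 (chr2:180258385-180258387, plus strand) has only 58 bases with 32.8% GC, and Magoh (chr4:107887274-107887276, plus strand) has 148 bases with 27.7% GC. The third of each side goes the other way in length. Ddit3 was gained with 197 bases (chr10:127296089-127296091, plus strand, 54.8% GC), and Atp5md was lost with 2494 bases (chr19:47085958-47085960, minus strand, 42.0% GC). Psmb1 and Cd79a, both lost, have 999 and 653 bases, the latter with 54.7% GC. None of the 6 transcripts shown has an exon junction behind its stop codon.

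Among the genes of the NMD pathway, 6 of 10 were gained, against 22.2% of all genes, and 2 were lost, a share near the 21.9% of all genes, with a list median of 1.63. The list's share of counts rose from 0.130% ± 0.00393 in IgG to 0.402% ± 0.0164 in p-UPF1 libraries. Smg5, which p-UPF1 recruits, was at 123, 122 and 132 CPM with IgG and 765, 776 and 778 CPM with the p-UPF1 antibody (2.62, SE 0.042, edgeR's quasi-likelihood test, adjusted p = 1.02e-17). Every p-UPF1 library was above every IgG library. Smg6, the endonuclease that cuts beside the stop codon, reached 2.40. Upf2 (2.05), Upf1 itself (2.08) and Smg9 (1.21), a subunit of the SMG1 kinase complex, were gained as well. The kinase mRNA Smg1 (0.82) and Upf3b (0.41) stayed within 1 unit of the IgG level. Smg8, the other SMG1 subunit, moved the opposite way, from 38.7, 37.4 and 37.5 CPM in IgG to 9.48, 9.93 and 10.9 CPM in p-UPF1 libraries (-1.90, SE 0.069, edgeR's quasi-likelihood test, adjusted p = 1.39e-13), as did Upf3a (-1.39). The 2 SMG1 subunits thus lay on opposite sides with no overlap of libraries in either case.

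The exon junction complex, which marks spliced junctions and hands UPF3 to UPF1, showed the opposite picture. None of its 10 genes was gained and 6 were lost (median -1.52). Magoh was at 49.4, 49.3 and 45.3 CPM with IgG and 6.40, 6.86 and 6.48 CPM with the p-UPF1 antibody (-2.87). The other core subunits Rbm8a (-1.93) and Eif4a3 (-1.93) and the copy Magohb (-1.91) were lost too, while the fourth core subunit, Casc3, stood at 0.96 and missed the minimum on the other side. Of the CCR4-NOT deadenylase, 10 of 11 genes stayed within 1 unit and Cnot9 alone was gained (1.92). Of all genes, 22.2% were gained and 21.9% lost. In decapping and 5′-3′ decay, 4 of 14 were gained (28.6%), among them the decapping activator Dcp1a (2.21) and Pnrc2 (2.17), which links decapping to UPF1, and 2 were lost (14.3%), the decapping enzyme Dcp2 (-1.05) and the scavenger Dcps (-1.78). In the RNA exosome, 3 of 16 were gained (18.8%), with Exosc2 highest (1.78), and 5 were lost (31.2%), with Exosc7 lowest (-2.14). Of 18 regulators that read AU-rich or stem-loop elements, none was gained and 7 were lost, the lowest being Zfp36l1 (-2.22), whose exons overlap an opposite-strand gene over 55.9% of their length. Zc3h12a, the endonuclease Regnase-1 that works with UPF1, stayed at -0.10.

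Stress genes were gained in part. In the integrated stress response, which answers a block of translation initiation, 10 of 22 genes were gained and 4 lost (median 0.43), against 22.2% and 21.9% of all genes. The gained ones held the transcription factors Atf3 (3.09), Ddit3 (2.39) and Atf4 (1.13), the pseudokinase Trib3 (2.43), the phosphatase subunit Ppp1r15a (2.10) that ends the response, and Eif2ak2 (2.82), the kinase PKR. Atf4 stood at 254, 257 and 249 CPM with IgG and 567, 601 and 492 CPM with the p-UPF1 antibody. The lost ones were Phgdh (-1.81), Asns (-1.71), Chac1 (-1.03) and Cebpb (-1.27), the first 2 being enzymes of serine and asparagine synthesis. Every p-UPF1 library was above every IgG library for Atf4. The share of the list rose from 0.295% ± 0.00172 to 0.464% ± 0.0258.

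Of 21 genes for stress sensors and for ER-associated degradation (ERAD), 6 were gained (28.6% against 22.2% of all genes), with Ube2g2 (3.13), a ubiquitin-conjugating enzyme, Atf6 (2.08) and the ligase Syvn1 (1.71) in front, and 1 was lost (Ube2j1, -1.15). The list median of 0.11 turned sign with library size alone. Of 23 chaperones and disulfide isomerases, 2 were gained and 9 lost (39.1% against 21.9%), down to Dnajb9 at -2.38, and Hspa5, the chaperone BiP, was lost with 1166, 1223 and 1211 CPM with IgG and 558, 544 and 528 CPM with the p-UPF1 antibody. Xbp1, the target of the sensor Ern1, stayed at -0.82 and Ern1 was gained (1.13). Of 19 amino acid transporters, 6 were gained, the neutral carriers Slc1a4 (3.04) and Slc7a6 (2.61) and the leucine carrier Slc7a5 (2.07) among them, while Slc3a2, the common heavy chain of Slc7a5, was lost (-1.48). All 3 Gadd45 genes, which answer DNA damage and stress, were gained, at 2.04, 2.98 and 2.81 for Gadd45a, Gadd45b and Gadd45g. In the whole list of Gadd45 and p53 response genes 8 of 23 were gained and 3 lost, these being Trp53 itself (-1.85), Btg2 (-1.39) and Cdkn1a (-1.02).

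Activation molecules of the B cell surface were found on both sides. Of 24 such genes, 10 were gained (41.7% against 22.2% of all genes) and 5 lost (20.8% against 21.9%), with a median of 0.35. Besides Cd83, the gained ones included Slamf1 (3.06), the CD28 ligand Cd80 (2.58) with its relative Cd86 (1.59), Icosl (2.28) and the adhesion molecule Icam1 (2.04). Cd80 averaged 8.92 ± 0.923 CPM with IgG and 53.3 ± 0.201 CPM with the p-UPF1 antibody (SD, n = 3). Lost were Tnfsf9 (-2.56) and Cd70 (-2.48), ligands for T cells, with Tnfrsf9, Cd69 and Pdcd1lg2. The list's share of counts went from 0.493% ± 0.00657 to 1.97% ± 0.0581, most of it Cd83, without which it was 0.380% and 0.504%.

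The signalling chains of the 3 stimuli were read against the 22.2% gained and 21.9% lost of all genes. Of 19 genes around CD40, 5 were gained (26.3%) and none lost, from Tab1 (3.53) and the adaptor Traf2 (2.97) to Cd40 (1.88), Traf1 (1.54) and the BAFF receptor Tnfrsf13c (1.10). Traf2 was at 60.3, 45.8 and 58.3 CPM with IgG and 419, 429.5 and 437 CPM with the p-UPF1 antibody. The partners Tab2 (0.58), Tab3 (0.86) and Traf6 (0.63) stayed within 1 unit. Around the IL-4 receptor, 3 of 16 were gained (18.8%) and 3 lost, shares near those of all genes, led by the receptor chain Il4ra with 305, 322 and 350.5 CPM with IgG and 2137, 2142 and 2160.2 CPM with the p-UPF1 antibody (2.72), while its partner chain Il2rg (-1.23) and the inhibitor Socs1 (-1.67) were lost. Stat6, the factor that carries the signal, was at 0.32. Downstream of the B cell receptor, 11 of 30 were gained (36.7%) and 3 lost, with the kinase Syk (2.63), the adaptor Pik3ap1 (2.16) and the guanine exchange factor Vav2 (2.24) gained and Prkcd (-1.86) and the phosphatase Ptpn6 (-1.15) lost. The receptor itself was not gained. Cd79a was lost at -2.10, Cd79b stood at -0.42 and Ighm at -0.07, and in the list of 16, 2 were gained and 5 lost.

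In the NF-kB family, 5 of 20 were gained and 3 lost, the first a share near the 22.2% of all genes and the second below the 21.9%. The inhibitors did not move together, since Nfkbie rose from 217, 222 and 226 CPM in IgG to 1595, 1650.4 and 1625 CPM in p-UPF1 libraries (2.87) whereas Nfkbia fell from 373, 348 and 338 to 96.4, 84.8 and 87.1 CPM (-1.98), and Nfkbib (-1.50) fell with it. The kinase Map3k14 (2.43) and the deubiquitinase Tnfaip3 (1.89) were gained. Rel was lost (-1.54), and Rela (0.69), Nfkb1 (-0.56) and Relb (-0.39) were not. Among 34 interferon response genes, 9 were gained (26.5%) and 7 lost (20.6%), again near the shares of all genes (median -0.37). Gained were the signalling factors Stat2 (3.24) and Irf1 (2.47) and the RNA-binding enzymes Adar (2.58) and Eif2ak2. Stat2 stood at 71.5, 67.3 and 75.7 CPM with IgG and 667, 685 and 677 CPM with the p-UPF1 antibody. Lost were the ubiquitin-like Isg15 (-2.13), the tetherin gene Bst2 (-1.94), Gbp3 (-1.69), Oas3 (-1.46), Usp18 (-1.41), Parp12 (-1.34) and Isg20 (-1.14), of which Usp18 and Parp12 had overlapping libraries.

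Transcription factors of B cell identity were neither gained nor lost in 19 of 30 cases, near the 55.9% of all genes, with 4 gained (13.3% against 22.2% of all genes) and 7 lost (23.3% against 21.9%). Gained were Id3 (2.53), Spib (2.14), Pou2f2 (1.36) and Irf4 (1.15). The lost ones included Myc, with 373, 379.9 and 356 CPM with IgG and 118, 119.7 and 121 CPM with the p-UPF1 antibody (-1.62), Bcl6 (-1.11) and its antagonist Prdm1 (-1.23). Pax5 (-0.42), Ebf1 (0.11) and Ikzf1 (0.66) stayed within 1 unit. Of 24 immediate early factors 9 were gained, 37.5% against 22.2% of all genes, and 6 lost. Ier2 (2.86), Mafk (2.48), Ier5 (2.41), Klf6 (2.05) and Jun (1.68) were gained, and the relatives Junb (-1.55) and Jund (-1.70) and the factors Fosl1 (-2.19) and Egr1 (-1.31) were lost. Jund exons overlap an opposite-strand gene over about 52.6% of their length. Of 12 MAP kinase phosphatases, 6 were gained (Dusp6, 2.15) and 2 lost (Dusp1, -1.25, and Dusp2, -1.22), the latter 16.7% against 21.9% of all genes.

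Antigen presentation and immunoglobulin RNAs had more members lost than the 21.9% of all genes, and fewer gained than the 22.2%. Of 12 genes for MHC class II presentation, 8 were lost (66.7%), H2-Aa from 1157, 1209.7 and 1159 CPM in IgG to 256, 279.9 and 257 CPM in p-UPF1 libraries (-2.15), Cd74 at -1.57 and the protease Ctss at -2.11. The exception was Ciita, the master activator of these genes, at 279, 298 and 323 CPM with IgG and 2314, 2371 and 2436 CPM with the p-UPF1 antibody (2.98). Class I presentation had the same layout, with 7 of 15 lost (46.7%), B2m lowest (-2.65), and the class I activator Nlrc5 the 1 gained gene (1.18). Reads of the H2 genes and of their close copies may have been divided between them. Of 169 immunoglobulin variable segments with enough counts, out of 226, 114 were lost (67.5%) and 4 gained (median -1.27), and their summed share was 0.0664% ± 0.00236 in IgG and 0.0245% ± 0.000948 in p-UPF1 libraries. Input held 0.135% ± 0.00186, so that the segments were lower in IgG than in input as well. V segments share reads, and in-frame and out-of-frame joins cannot be told apart in gene counts.

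Survival and division genes are given beside the 22.2% gained and 21.9% lost of all genes. In the BCL2 family, 6 of 19 were gained (31.6%) and 3 lost (15.8%), with the death agonist Bid at 66.2, 70.9 and 62.8 CPM with IgG and 554, 578 and 544 CPM with the p-UPF1 antibody (3.07), Bbc3 (1.82), Bmf (1.71) and the protective Mcl1 (1.40) and Bcl2 (1.27). The copies Bcl2a1d (-2.24) and Bcl2a1b (-1.67) were lost, but their near-identical sequences make the division of reads uncertain. Casp9 (2.15) and Cflar (1.94) were gained, and Casp1 (-1.60) and Casp6 (-1.44) were lost. Among 34 cyclins and cyclin-dependent kinases 5 were gained (14.7%) and 8 lost (23.5%, near the share of all genes), with the mitotic Ccnb1 (-1.90), Ccnb2 (-1.80) and Cdk1 (-1.56) lost. Of 42 DNA replication genes 18 were lost, or 42.9% (Pcna, -2.24) and 7 gained, or 16.7% (Orc5, 1.82). Within single complexes, Gins3 was gained while Gins1 (-1.26) and Gins4 (-1.26) were lost, and Rpa2 was gained (1.94) while Rpa3 was lost (-3.07). Of 40 kinetochore genes 28 were neither gained nor lost, against 55.9% of all genes. Nsl1 (3.29), Mis12 (2.12) and Dsn1 (1.38) of the MIS12 complex were gained and its Pmf1 (-1.49) was lost. Among 34 genes of class switch recombination and DNA repair 26 were neither, 5 were gained, with the nuclease Dclre1c from 48.7 ± 3.33 to 138 ± 1.13 CPM the highest (SD, n = 3), and 3 were lost, the mismatch repair gene Msh6 lowest (-1.26).

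Of 31 cholesterol and fatty acid synthesis genes, 12 were gained (38.7% against 22.2% of all genes) and 3 lost (9.68% against 21.9%), with a median of 0.64, and the share of counts rose from 0.591% ± 0.0224 to 1.35% ± 0.0152, or without Scd2 from 0.471% to 0.752%. Scd2, the stearoyl-CoA desaturase, was at 1005, 1164 and 1191 CPM with IgG and 6302, 6347 and 6289 CPM with the p-UPF1 antibody (2.49). The late enzyme of cholesterol synthesis Dhcr7 (2.49) and the regulator Insig1 (2.20) were gained, whereas the early enzyme Fdps (-1.77) was lost. Of 33 autophagy genes 10 were gained (30.3%), with the conjugation factor Atg12 (3.34), Atg14 (2.68) and the LC3 relatives Gabarapl1 (2.41) and Map1lc3b (2.07), and 3 lost (9.09%), the relatives Gabarapl2 (-2.09) and Map1lc3a (-1.22) and the receptor Sqstm1 (-1.50). Rab GTPases, switches of vesicle traffic, had 17 of 48 gained (35.4%) and 9 lost (18.8%). Paralogues parted here too, with Rab5b gained (1.75) and Rab5c lost (-1.81), and Rab2b gained (1.24) and Rab2a lost (-1.82). Arf and Arl GTPases, DnaJ co-chaperones and GPI anchor genes had members on both sides, with 8 gained and 9 lost of 26, 8 and 11 of 38, and 3 and 8 of 24. Of 316 zinc finger genes of the Zfp series 76 were gained (24.1%) and 35 lost (11.1%). Glycolysis stood apart from lipid synthesis, with 11 of 19 lost, Aldoa (-1.93), Gapdh (-1.76) and Ldhb (-2.57) among them, and 1 gained, the glucose carrier Slc2a3. Of 63 histone-modifying enzymes 49 were neither gained nor lost, against 55.9% of all genes, with 8 gained (12.7%) and 6 lost (9.52%).

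**Figure D3:**
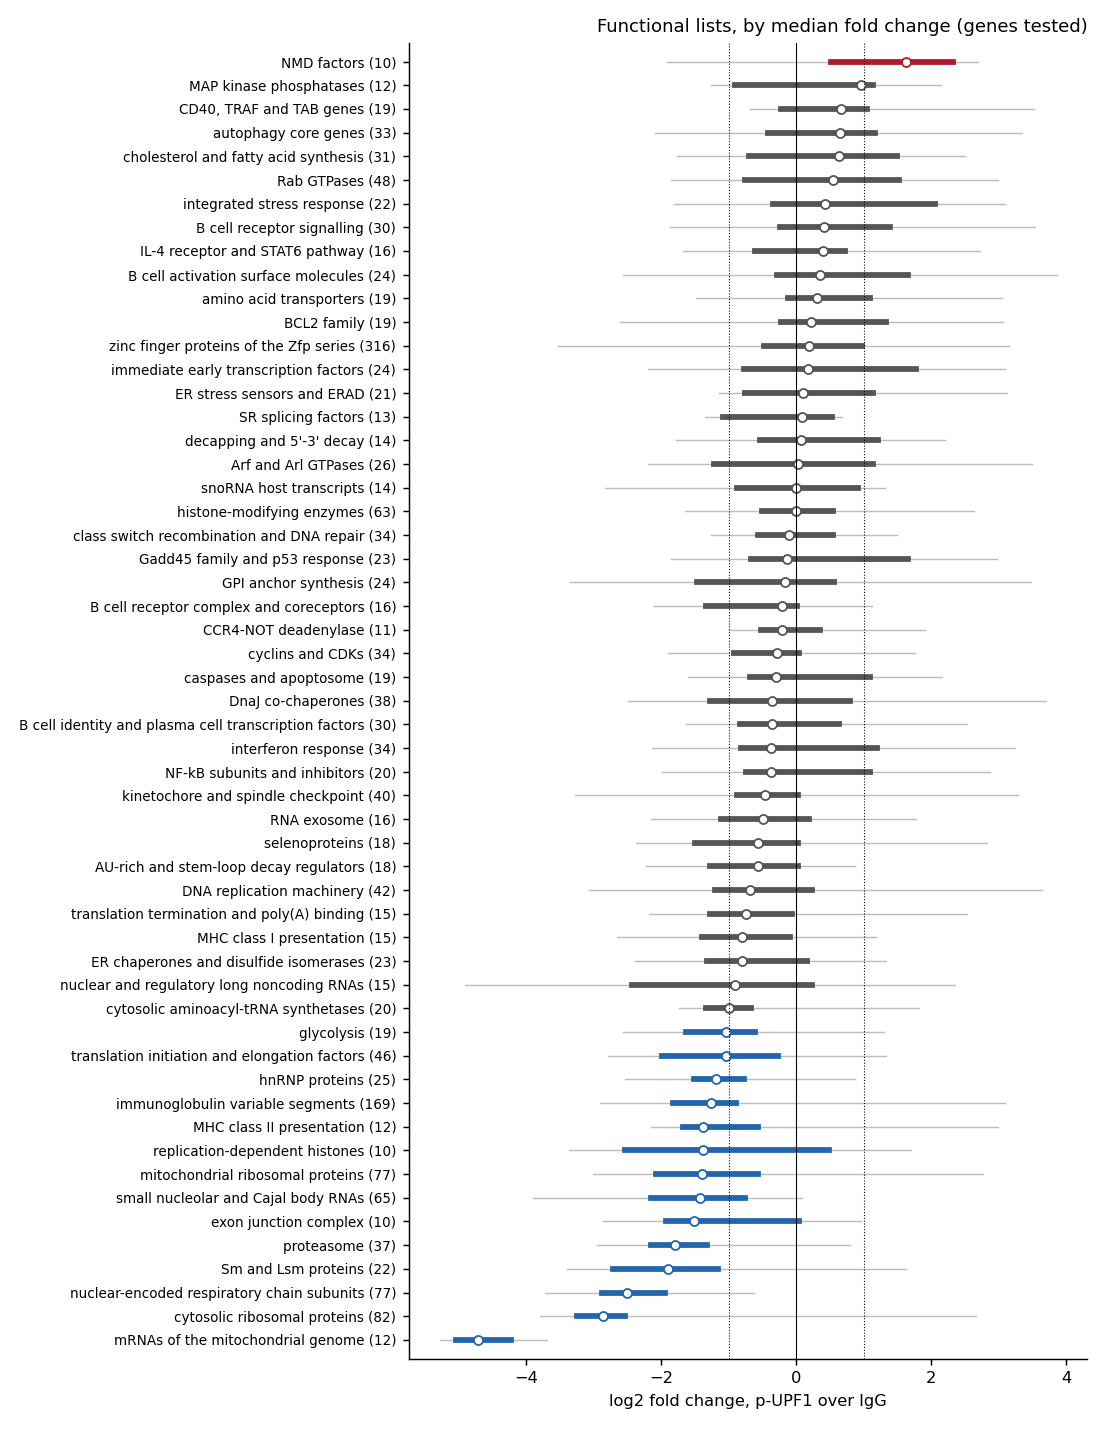
For each of the 55 functional lists, the circle gives the median log2 fold change of p-UPF1 over IgG, the thick bar the quartiles and the thin line the full range of its tested genes, whose number is in brackets. The NMD factors have the only median of at least 1 and 14 lists have a median of -1 or less, relative to the median gene of all 13129; of those 14 only the mitochondrial mRNAs stay below 0 when these mRNAs are held equal.

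Nearly all ribosomal protein mRNAs were lost. Of 82 ribosomal protein genes with enough counts, out of 85, 81 were lost and 1 was gained, with a median of -2.86 against 21.9% of all genes lost. The list took 5.32% ± 0.224 of the counts in IgG and 0.837% ± 0.0493 in p-UPF1 libraries, a 6.35-fold difference. Rps21 stood at 293, 288 and 274 CPM with IgG and 21.4, 20.5 and 19.9 CPM with the p-UPF1 antibody (-3.79). The exception was Rpl7l1 (2.66), a ribosomal protein relative, at 125, 131 and 119 and 796, 783 and 789.8 CPM. Ribosomal protein genes have many processed pseudogenes, and 77 of 105 pseudogenes with enough counts were lost as well, so part of their reads may be shared. Of 46 translation factors 24 were lost (52.2%) and 6 gained (13.0% against 22.2% of all genes). The elongation factor Eef1a1 went from 5963, 6007 and 5790.3 CPM in IgG to 841, 871 and 868 CPM in p-UPF1 libraries (-2.78), and subunits of eIF3 such as Eif3h (-2.60) and Eif3m (-2.58) fell with it, while the initiation factors Eif1a (1.33) and Eif4e2 (1.13) were gained. Of 20 aminoacyl-tRNA synthetases 10 were lost, against 21.9% of all genes, and Wars was gained (1.83). Pabpc1, the poly(A) binding protein, was lost (-2.19), and Paip2b, an inhibitor of it, was gained (2.53).

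RNA processing, proteasome and nuclear-encoded mitochondrial lists are given beside the 22.2% gained and 21.9% lost of all genes. Of 22 Sm and Lsm genes, which build spliceosomal particles, 17 were lost (77.3%, median -1.89), down to Snrpg (-3.39), and Lsm11 was gained (1.63). Among 25 hnRNP genes 16 were lost (64.0%) and none gained, with Pcbp2 at 487, 487 and 477 CPM with IgG and 80.0, 84.7 and 85.4 CPM with the p-UPF1 antibody (-2.54), although 32.7% of its exon bases overlap an opposite-strand gene. Among 13 SR splicing factors 5 were lost (38.5%) and none gained, from Srsf5 (-1.36) to Srsf10 (0.68), and the sign of their median turned with library size alone, from 0.09 to -0.07. Of 37 proteasome genes 31 were lost (83.8%) and none gained (median -1.79), down to Psmb1 (-2.94). Mitochondrial proteins encoded in the nucleus were also among the lost. Of 77 respiratory chain genes 74 were lost (96.1%) and none gained (median -2.51), with Atp5md, a subunit of ATP synthase, at 35.5, 38.3 and 35.7 CPM with IgG and 2.49, 3.25 and 2.54 CPM with the p-UPF1 antibody (-3.73). Of 77 mitochondrial ribosomal proteins 51 were lost (66.2%) and 3 gained, Mrpl49 (2.76), Mrpl50 (1.70) and Mrps27 (1.42).

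**Figure D4:**
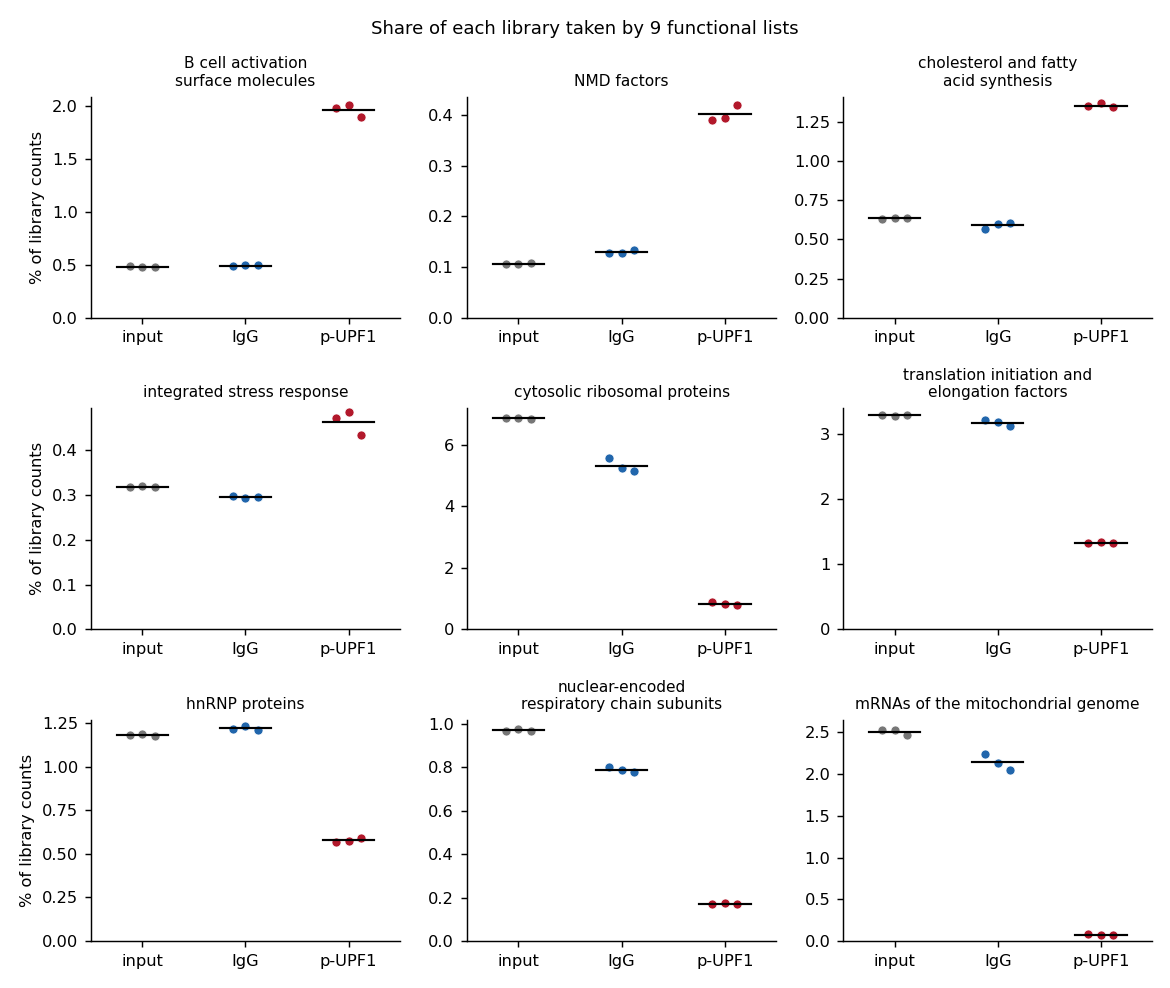
Points give the share of the counts of each library (in %) that a list took in the 3 input, 3 IgG and 3 p-UPF1 libraries, with the mean as a bar and each axis starting at 0. The input mean lies nearer to IgG than the p-UPF1 mean does in all 9 lists shown, but not in 13 of the 55 lists, MHC class II and immunoglobulin variable segments among them, and is near IgG for NMD factors with 0.107% ± 0.00130, 0.130% ± 0.00393 and 0.402% ± 0.0164; shares are relative to all counts and carry no amount of RNA.

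RNAs made inside mitochondria had the lowest median of the 55 lists, -4.71. All 12 mRNAs of the mitochondrial genome with enough counts were lost, against 21.9% of all genes, from -3.69 (COX2) to -5.28 (ND3). COX1 stood at 4530.2, 5599 and 5421 CPM with IgG and 276, 313 and 289.8 CPM with the p-UPF1 antibody, and the mitochondrial ribosomal RNAs mt-Rnr1 (-4.33) and mt-Rnr2 (-3.76) fell with the mRNAs. In IgG, ND6 and ND5 stood 1.24 and 1.02 log2 units above input, while the list median of IgG over input was -0.72. Together the mRNAs took 2.14% ± 0.0946 of the counts in IgG and 0.0740% ± 0.00364 in p-UPF1 libraries. As background, they are translated by mitochondrial ribosomes inside the organelle.

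Of 442 lncRNAs with enough counts 141 were gained, above the 22.2% of all genes, and 93 lost, a share near the 21.9% (median 0.20). Among those averaging 10 CPM or more the highest were D030028A08Rik (2.85), A530072M11Rik (2.82) and Gm16973 (2.66). The lowest were A930013F10Rik (-4.11), Norad (-3.65), which binds Pumilio proteins, and Mir17hg (-2.90), the host of the miR-17 cluster. Norad was at 210.3, 326 and 349 CPM with IgG and 21.5, 23.6 and 25.5 CPM with the p-UPF1 antibody, and at 84.9 ± 1.79 CPM in input (SD, n = 3). Pvt1, which lies beside Myc, was gained (2.35) while Myc mRNA was lost. The snoRNA hosts, whose spliced transcripts are known NMD substrates, had 4 of 14 gained (28.6% against 22.2%), Snhg17 (1.31), Snhg16 (1.29), Snhg15 and Snhg5 (1.07), and 3 lost (21.4% against 21.9%). Gas5, also a host, stood at 1199, 1001 and 957 CPM with IgG, 543 ± 14.9 CPM (mean ± SD) with the p-UPF1 antibody and 421 ± 19.1 CPM in input. Its -0.96 was thus measured from an IgG level 1.32 log2 units above input, and against input p-UPF1 stood at 0.37.

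The nonspecific antibody itself gained some RNAs over input. Of the 2879 lost RNAs, 142 exceeded their input level in IgG by 1 log2 unit or more at an adj. P below 0.05, so that for these the loss was measured from a raised IgG level. Ms4a4a, a membrane protein, was at 83.0, 83.9 and 75.4 CPM with IgG, 1.63 ± 0.433 CPM (mean ± SD) with the p-UPF1 antibody and 4.06 ± 0.198 CPM in input libraries. Zfp420 showed the same layout, with 39.3, 44.6 and 54.3 CPM in IgG against 6.30 ± 0.615 CPM in input libraries and a log2 fold change of -3.52 for p-UPF1 over IgG. Small nucleolar and Cajal body RNAs did so as a class. Of 65 with enough counts, out of 123, 42 were lost (64.6% against 21.9% of all genes) and none gained over IgG (median -1.43), but their median was 1.81 for IgG over input and 0.39 for p-UPF1 over input. Snord22, for example, was at 36.6, 32.0 and 27.3 CPM with IgG, at 10.3, 8.35 and 9.43 CPM with the p-UPF1 antibody and at 3.37 ± 0.733 CPM in input. The other 2737 lost RNAs did not exceed input in IgG by 1 log2 unit at an adj. P below 0.05.

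The fold change ran with the length of the mRNA and with the length and GC content of its 3′ UTR. Over 11861 genes with a coding transcript, Spearman's rho with the log2 fold change was 0.32 for 3′ UTR length, 0.31 for the GC content of the 3′ UTR (11606 genes), 0.28 for the length of the whole mRNA, 0.13 for coding length and 0.08 for 5′ UTR length, as a description over genes that share the same libraries. The GC content of the coding part gave 0.17. With log2 lengths, Pearson's r was 0.31 for the whole mRNA and 0.30 for the 3′ UTR. Of the shortest 1187 mRNAs (up to 1277 bases) 62.2% were lost (median -1.45), and of the 1187 with the shortest coding part (up to 549 bases) 49.1% (median -0.96). In 10 equal groups of genes by 3′ UTR length, from the shortest (up to 173 bases) to the eighth (1798 to 2401 bases), the median rose from -0.80 to 0.59, and in the longest group it was 0.16. The share of gained genes ran from 9.18% to 36.6% over the same groups and that of lost genes from 43.9% to 10.2%. Among long 3′ UTRs with high GC content, 53.5% of 1290 genes were gained and 4.03% lost, whereas among short 3′ UTRs with low GC content 3.41% of 1290 were gained and 46.7% lost. Long 3′ UTRs of low GC content had a median of -0.23. For IgG over input, in a comparison that shares the IgG libraries, the medians of these 9 classes of 3′ UTR lay between -0.17 and -0.0039.

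**Figure D5:**
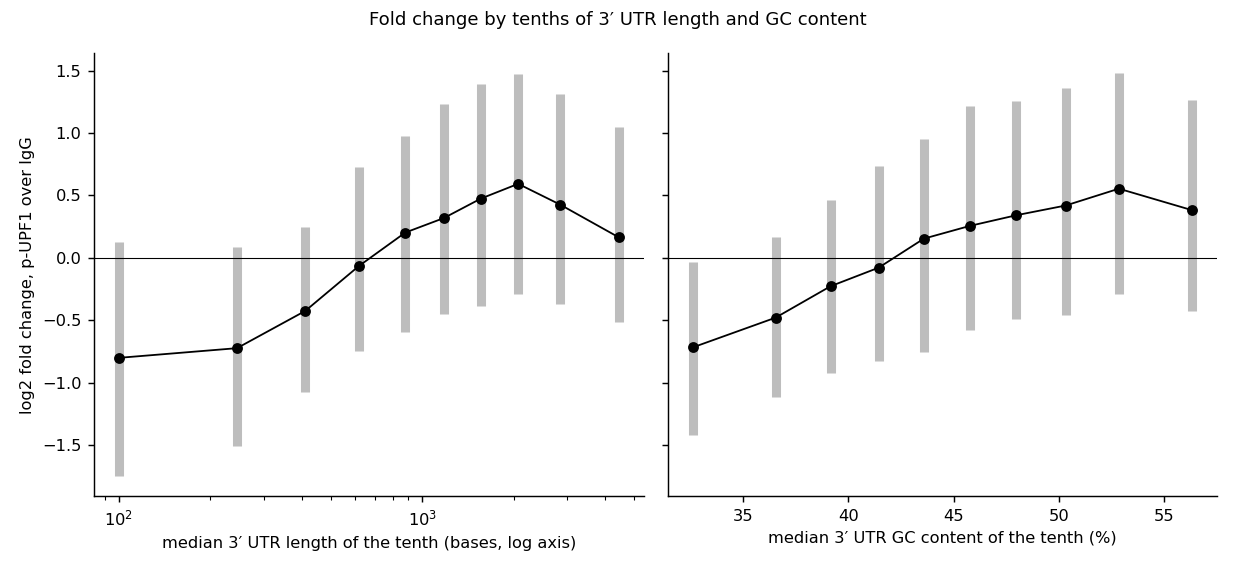
Dots give the median and grey bars the quartiles of the log2 fold change of p-UPF1 over IgG in 10 equal groups of the genes ranked by 3′ UTR length (left, log axis) and by 3′ UTR GC content (right). The median goes from -0.80 in the shortest group to 0.59 in the eighth and then back to 0.16, and from -0.72 at the lowest GC content to 0.55 in the ninth group, all relative to the median gene.

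The functional lists could be placed on this scale. Ribosomal protein genes had a median 3′ UTR of 84.0 bases, respiratory chain genes of 160.5 and proteasome genes of 213 bases. NMD factors had 1094 bases, Rab GTPases 1950 and cholesterol and fatty acid synthesis genes 1600. Other lists of such length had medians below 0. The hnRNP genes had 1082 bases (median log2 fold change -1.18), ER chaperones and disulfide isomerases 1260 (-0.81) and B cell transcription factors 1832.5 (-0.35). The AU-rich and stem-loop decay regulators had 2081 bases, with a median log2 fold change of -0.57 and a GC content of 39.6%. Without the 291 genes of the ribosomal, mitochondrial ribosomal, respiratory chain, proteasome and Sm and Lsm lists, rho with 3′ UTR length was 0.30.

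Among other features that classically mark an NMD substrate, a late exon junction was rare, and an AUG in the 5′ UTR went with a small difference. An annotated exon junction more than 50 bases behind the stop codon was found in the main transcript of 48 genes. Of these, 23 (47.9%) were gained and 4 (8.33%) lost (median 0.73), against 22.5% and 20.1% of the 11813 genes without one. Several gained ones had few counts with IgG, such as Fam78b (0.0687 CPM), Cabyr (0.258 CPM) and Sstr1 (0.399 CPM). Such genes could enter through libraries where they are higher and can hardly be called lost. Of the 4 lost, Adam1a (0.524 CPM) and Nrg4 (0.426 CPM) were as low with the p-UPF1 antibody. Arc, a neuronal mRNA known to be an NMD substrate, went from 3.41 ± 0.511 CPM to 33.8 ± 0.864 CPM (3.31), with the last junction 757 bases behind the stop codon. Nod2 (3.05), a bacterial sensor, and Marveld1 (2.56) were gained too, and Clp1 (-1.65) and Hnrnpa2b1 (-1.49) were lost. All genes named in this paragraph were chosen after their values were seen. The 6135 genes with an AUG in the 5′ UTR had a median of 0.13 and the 5726 without one of -0.14, with 23.3% and 21.8% gained and 16.2% and 24.2% lost. The 3487 genes with any transcript annotated as an NMD substrate had 22.3% gained and 14.7% lost (median 0.17), and the 8374 others 22.7% and 22.2% (median -0.06).

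Selenoprotein mRNAs read UGA as selenocysteine, so that the codon can act as a stop when selenium is scarce, and they were not gained as a class. Of 18 with enough counts, out of 23, 1 was gained (5.56% against 22.2% of all genes) and 8 were lost (44.4% against 21.9%), with a median of -0.56. The codon is shown in capitals with its flanking coding bases, 5′ to 3′, from GENCODE M21 on GRCm38, for a pair of glutathione peroxidases and for the lowest and the highest member averaging 10 CPM or more.
Gpx1: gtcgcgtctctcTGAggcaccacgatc
Gpx4: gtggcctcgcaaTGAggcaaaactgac
Selenok: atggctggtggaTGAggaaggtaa
Selenow: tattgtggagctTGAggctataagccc
The UGA of Gpx1 is codon 47 (chr9:108339451-108339453, plus strand) and lies 105 bases before the last exon junction, and that of Gpx4 is codon 73 (chr10:80054737-80054739, plus strand), 342 bases before it. In Selenok it is codon 92 of 94 (chr14:29973440-29973442, plus strand), 5 bases before the junction, and in Selenow codon 13 (chr7:15920464-15920466, minus strand), 243 bases before it. Gpx1 stood at 126, 132 and 126 CPM with IgG and 86.9, 86.6 and 84.4 CPM with the p-UPF1 antibody (-0.58), Gpx4 at -2.27, Selenok at -2.37 and Selenow at 0.17. The 9 with the codon over 50 bases before the last junction had a median of -0.58, with 1 gained and 4 lost, and the 9 others one of -0.55, with none gained and 4 lost. The gained one, Gpx3 (2.83), was at only 0.138 ± 0.0584 CPM in IgG libraries.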

How the data were processed

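The authors deposited raw read counts per gene for 9 libraries. Per the labels, reads were processed with cutadapt, HISAT2 and featureCounts on mm10, without versions. How strand was treated for RIP-seq is not given in the sources used here, and 885 of the gained genes share exon bases with a gene on the opposite strand. Columns were matched to groups by name, not to replicate numbers, and no column was left over (0 not used). The study's methods speak of its plotted samples as independent biological replicates but name no separate animals or cultures for RIP-seq, so P values measure the spread between these libraries. Libraries differed in depth as given above, and no molecular identifiers are described.

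Genes were kept by filterByExpr (minimum count 10, minimum total 15), which left 99.94% to 99.95% of counts. TMM scaling and a negative binomial fit over all 9 libraries (6 residual degrees of freedom) were done in edgeR 4.0.16 with glmQLFit and a two-sided glmQLFTest. P values were adjusted by Benjamini-Hochberg over all 13129 genes. CPM are TMM-normalised and fold changes carry a prior count of 0.125. The code was tested on simulated data first. Symbols came from RefSeq for 25275 identifiers, 17 more came from GENCODE and 1887 had none. Transcript features were taken from 1 GENCODE M21 transcript per gene, the APPRIS principal or longest coding one. GC content was taken for 3′ UTRs of at least 50 bases.

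The named genes were 6 fixed by name (Upf1, Smg5, Gadd45b, Ddit3, Atf3 and Gas5), the 15 highest and 15 lowest at a mean of at least 10 CPM and the 10 at each end at 100 CPM that were past an adj. P of 0.05 with libraries that did not overlap, 3 lncRNAs at each end, and members of the lists. The comparison, the 55 lists (1915 tested genes) and these rules were chosen with earlier results of these data known, so no count is independent support. Some members of the lists are not reported here by name.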

Additional observations from a re-analysis of the deposited data

How the results depend on the processing

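With other normalisations, tests and filters (DESeq2 1.42.0 and its size factors alone, upper-quartile factors, library size alone, limma-voom with limma 3.58.1, no filter on low counts, at least 1 CPM in 3 libraries, the 6 precipitate libraries alone, and equal depth) 2500 to 3303 RNAs were gained and 2664 to 3409 lost. Leaving out 1 library at a time gave 2919 to 3070 gained, 2831 to 2950 lost and 10500 to 11120 different. Tested against a minimum of 1 log2 unit with glmTreat, 4663 RNAs differed. Library size alone and upper-quartile factors put 43.0% and 43.9% of the genes at an adj. P below 0.05 on the higher side, against 48.9% with TMM, and turned the sign of 5 list medians near 0. With equal mitochondrial mRNA, a scaling chosen after seeing the data, 13039 RNAs were gained and 0 lost, and 16 genes lay below 0 by point estimate. Of the 135 genes named by rule, 123 kept direction and side of the adj. P threshold in 18 other settings, and 61 did so with equal mitochondrial mRNA added. The 12 that did not in the 18 were Iglv3 and Selenow, near the threshold in several settings, and 10 genes near or under 1 log2 unit that passed in the test of any difference but not in that of glmTreat against 1 log2 unit. With mitochondrial mRNA equal, 64 of the 70 named genes with a log2 fold change below 0 lay above 0 by point estimate, and of the other 6, 4 stayed lower at an adj. P below 0.05 (Ms4a4a, ND6, ND5 and ND2). Under that scaling the log2 fold changes of the 64 were mt-Rnr1 0.36, gene 100503642 0.44, ND1 0.45, COX1 0.55, A930013F10Rik 0.58, gene 100628626 0.90, Rps21 0.91, mt-Rnr2 0.93, Rps28 0.94, Atp5md 0.96, Norad 1.04, Zfp420 1.16, Snrpg 1.305, Rpa3 1.62, Mrps28 1.68, Psmb1 1.75, Mir17hg 1.79, Magoh 1.83 and Eef1a1 1.91. Next came B2m 2.04, Tnfsf9 2.13, Pcbp2 2.16, Dnajb9 2.31, Selenok 2.32, Bcl2a1d 2.45, Zfp36l1 2.48, Arl3 2.495, Pabpc1 2.51, H2-Aa 2.54, Exosc7 2.55, Igkv10-96 2.60, Cd79a 2.60, Nfkbia 2.71, Bst2 2.75, Aldoa 2.76, Smg8 2.79 and Ccnb1 2.79. Higher lay Prkcd 2.83, Rab9 2.84, Snora73a 2.84, Trp53 2.85, Phgdh 2.89, Dcps 2.91, Fdps 2.92, Snord22 2.92, Dars 2.96, Jund 2.997, Snhg4 2.999, Socs1 3.02, Eed 3.05, Myc 3.07 and Casp1 3.09, and highest Sqstm1 3.19, Pmf1 3.196, Dpm1 3.21, Slc3a2 3.22, Srsf5 3.34, Msh6 3.44, Dusp2 3.48, Ube2j1 3.54, Cnot10 3.70, Gas5 3.74, Traf3ip3 4.01 and Sdhc 4.07. No paired analysis was possible because the columns carry letters that the labels do not tie to the replicate numbers. Depth limits genes under about 1 CPM, where counts are few.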
